A study of Mus musculus with 22 samples.

Results

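Emx1, Neurod6, Neurod2, Tbr1, Fezf2, Bcl11b, Cux1, Cux2 and Rorb are transcription factor genes of the cerebral cortex, and they were taken as a list from a genome-wide survey of the 7-day-old mouse brain. They are 9 of the 20129 gene symbols that could be assigned to RefSeq-identified probes. The study sliced the whole brains of 3 mice into serial slabs and hybridised their RNA as fractions, 1 to a 1-colour Agilent array, an approach named Transcriptome Tomography. All mice were male, untreated C57BL/6J animals. One brain gave 10 coronal fractions, one gave 6 horizontal fractions and one gave 6 sagittal fractions, 22 arrays in all. The sample titles and the study's methods give an age of 7 days, whereas the age field of the labels gives 3 days. Most fractions are 1 slab, but coronal fraction 10 joined slabs 10 and 11, sagittal fraction 1 joined slabs 1 and 2, and sagittal fraction 6 joined slabs 7 to 9. Slab thickness also differs between labels and methods, so positions are given as fraction numbers. Neither labels nor methods say which end of each axis fraction 1 is. No fraction was measured in a second animal. The error quoted is therefore the scatter of the fractions around a smooth curve within single brains, and it does not cover differences between mice.

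The cerebral cortex is built of layers whose excitatory projection neurons are born in sequence, deep layers before upper layers. EMX1 is a homeodomain protein of the dorsal telencephalon, and NEUROD6 and NEUROD2 are basic helix-loop-helix factors of differentiating projection neurons. TBR1, a T-box protein, is needed for neurons that project from the deepest layer to the thalamus, and FEZF2 and BCL11B (also named CTIP2) act in the neurons that project below the cortex to the brainstem and spinal cord. CUX1 and CUX2, homeodomain proteins, mark upper-layer neurons, and the orphan nuclear receptor RORB marks the layer that receives thalamic input. Several of these genes are also active elsewhere, such as Bcl11b in the projection neurons of the striatum, Neurod2 in cerebellar granule neurons, Tbr1 in the output neurons of the olfactory bulb and Rorb in the thalamus.

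Each level below is the log2 processed signal of a probe minus the 75th percentile of all probes on the same array, so a level of 0 equals that percentile and a difference of 1 is a factor of 2. Levels of different genes come from different probes and were not compared with each other. The 9 genes had 13 RefSeq-identified probes, and the probe with the highest median over the 22 arrays was used for each. All 9 probes were well above background on all 22 arrays, except that Emx1 in coronal fraction 1 and Fezf2 in coronal fraction 3 were not.

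On single arrays, 29605 to 41965 probes passed the scanner software's test for signal well above background. The number of arrays, 22 for 3 brains, sets the precision of every value given here. The slope of the added spike-in transcripts lay outside the scanner software's accepted range on 7 arrays, of which 3 were the first 3 of the horizontal series, 2 the first 2 of the coronal series, and 2 were sagittal (fractions 1 and 3). In the horizontal series this split is the same as the split into fractions 1 to 3 and 4 to 6, so position and array quality cannot be told apart there. Slides were shared unevenly, with all 6 horizontal arrays on 1 slide, all 6 sagittal arrays and coronal fractions 9 and 10 on another, coronal fraction 2 on its own and the other 7 coronal arrays together. Markers fixed for other brain regions were read beside the members as summed linear levels, in units of the array's 75th percentile. The 8 midbrain and hindbrain markers summed to 37.5 in coronal fraction 1 and to between 0.271 and 12.5 in the other 9, and the 7 olfactory bulb markers summed to 92.1 in coronal fraction 10 and to at most 13.3 elsewhere in that series. By these sums, coronal fraction 1 lay towards the hindbrain and fraction 10 towards the olfactory bulb. No marker in either list was below background on all arrays, but En1, a midbrain and hindbrain gene, was well above it on only 3.

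**Figure D1:**
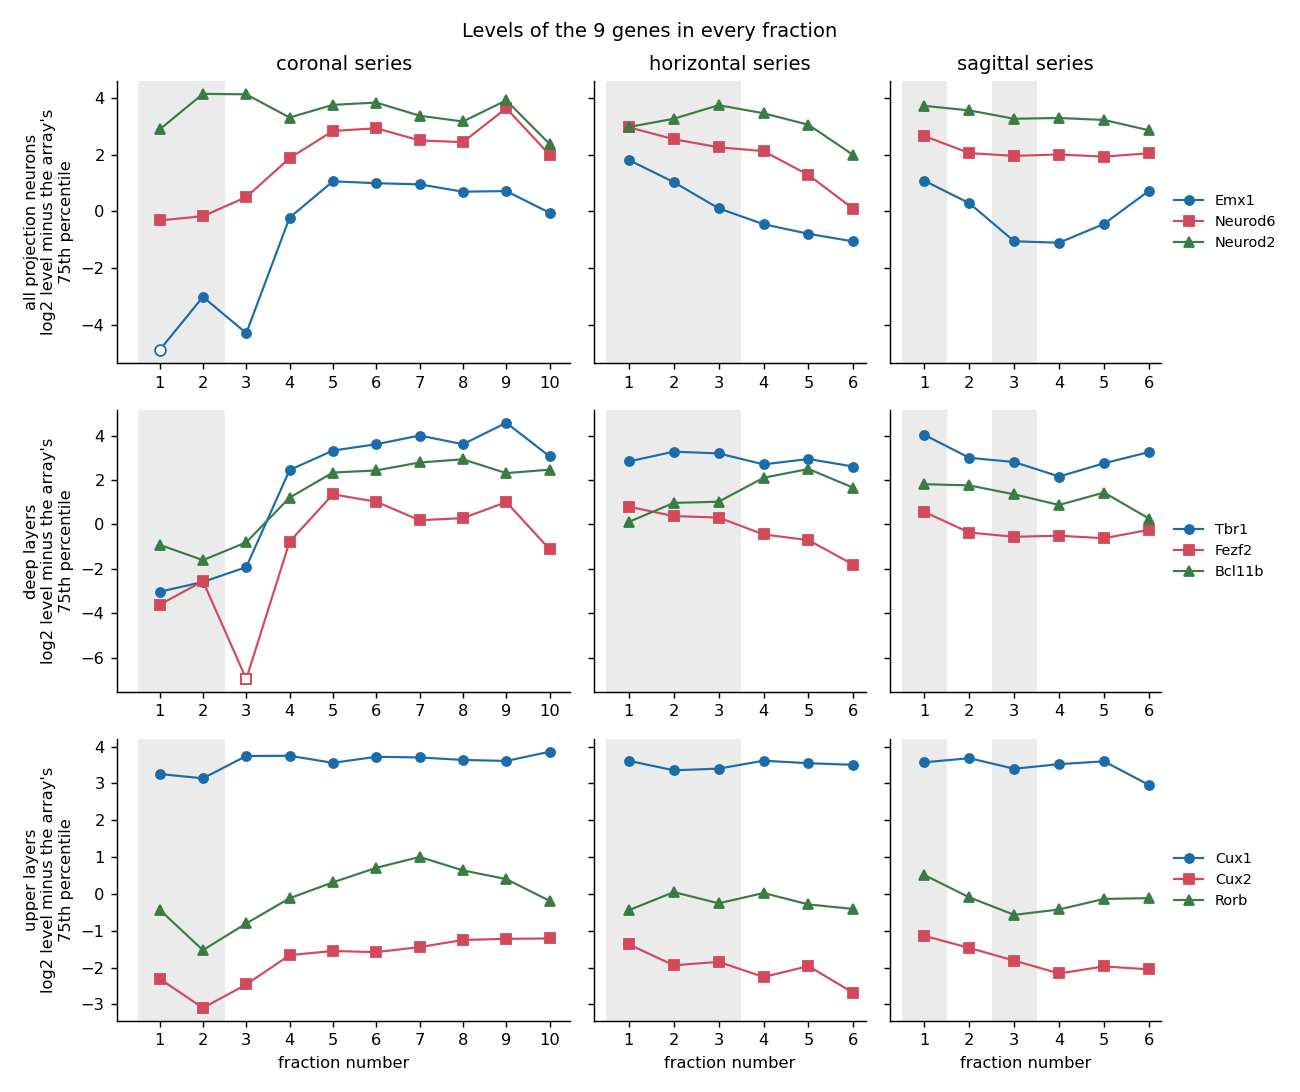
Level of each of the 9 genes (log2 processed signal minus the array's 75th percentile, vertical axis) against fraction number in the coronal, horizontal and sagittal series, 1 array per point. Open symbols are spots not well above background, and grey bands mark the arrays with the spike-in slope out of range. The curves of Tbr1 and Emx1 are low in coronal fractions 1 to 3 and high from fraction 4 on, while Cux1 stays between 2.96 and 3.86 throughout.

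Along the coronal series, 7 of the 9 genes changed with position, and all 7 rose from low to high fraction numbers. They were Emx1, Neurod6, Tbr1, Fezf2, Bcl11b, Cux2 and Rorb. The test was limma's moderated F test of the position terms (linear and quadratic in the mean slab number of a fraction), with Benjamini-Hochberg adjustment over 39621 probes, and 19.8% of those probes passed in either direction at an adjusted p of 0.05, with 12.4% rising and 7.43% falling by the sign of the linear term. The median fitted change from fraction 1 to fraction 10 was 3.24 log2 units over the 9 genes and -0.14 over all probes tested. In the same 7 genes, every one of fractions 1 to 3 lay below every one of fractions 4 to 10, a pattern held by 8.81% of the probes. In bulk slabs a lower level can mean fewer cells of a type or less RNA per cell, which cannot be told apart. The 8 cerebellar granule cell markers, of which 5 were above background on all arrays, summed to between 92.8 and 180 in coronal fractions 1 to 3 and to between 32.7 and 81.9 in fractions 4 to 10. Without Zic1 the 2 groups of fractions met, at 33.6 in both fraction 1 and fraction 10. Etv1, which is also in the list of other deep-layer genes used below, was at 3.02 in fraction 1 and 4.52 in fraction 10 (log2). Of the 7 granule cell markers tested, 5 fell along the series and none rose. The part of cerebellar RNA in these results was not tested. The 8 oligodendrocyte markers summed to between 205 and 424 in fractions 1 to 3 and to between 43.5 and 170 in fractions 4 to 10, and 5 of them fell along the series and 1 rose. The 7 astrocyte markers overlapped, at 305 to 516 against 216 to 365, and 3 of them fell. All genes of both glial lists were above background throughout the series, and the part of glial RNA in the members' levels was not tested. The summed levels of hippocampus and striatum markers were also lower in fractions 1 to 3. The 8 hippocampus markers, 6 of them above background on all arrays, summed to between 8.43 and 11.9 in fractions 1 to 3 and to between 16.4 and 27.8 in fractions 4 to 10, and the 9 striatum markers to between 6.75 and 8.47 and between 10.3 and 111. Of the hippocampus markers 3 rose and 2 fell along the series, with a median change of -0.40, and of the striatum markers 4 rose and none fell. The 5 blood and bone markers summed to between 51.1 and 64.2 in fractions 1 to 3 and to between 16.2 and 42.4 in fractions 4 to 10. The midbrain and hindbrain markers summed to between 8.32 and 37.5 and between 0.271 and 3.88, with as few as 1 of 8 above background. The part of any of these in the members' levels was not tested.

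Tbr1 had the largest fitted coronal change of the 9 genes. Its levels were -3.03, -2.59 and -1.92 in fractions 1 to 3 and 2.45, 3.32, 3.61, 4.00, 3.61, 4.57 and 3.06 in fractions 4 to 10. The step of 4.37 between fractions 3 and 4 was the only gap between ranked neighbours beyond the spread of a difference, 1.07 in the ranked order. The highest fraction, 9, was 194-fold above the lowest. The fitted end-to-end change was 7.56 ± 0.73 (SE, adjusted p = 0.000135, limma). A second Tbr1 probe followed the first with a Pearson r of 0.950 over the 22 arrays and passed as well (adjusted p = 0.000963, limma).

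Emx1 was at -4.90 (not well above background), -3.02 and -4.31 in coronal fractions 1 to 3, at -0.22 in fraction 4, and between -0.05 and 1.07 in fractions 5 to 10. Fraction 5, the highest, was thus at least 62.7-fold above the lowest. Neurod6 rose from -0.32, -0.17 and 0.51 in fractions 1 to 3 to between 1.89 and 3.65 in fractions 4 to 10. The low and the high fractions of both genes stood apart without overlap. The fitted changes were 5.40 ± 0.74 for Emx1 (SE, adjusted p = 0.000503, limma) and 3.24 ± 0.43 for Neurod6 (SE, adjusted p = 0.000446, limma). With only the arrays whose slope was in range, which leaves out coronal fractions 1 and 2, the adjusted p of Neurod6 was 0.0625.

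The other deep-layer genes also rose. Bcl11b lay between -1.61 and -0.80 in coronal fractions 1 to 3, at 1.21 in fraction 4 and between 2.31 and 2.93 in fractions 5 to 10, with a fitted change of 4.49 ± 0.57 (SE, adjusted p = 0.000542, limma). Its other probe gave nearly the same profile (r = 0.984 over the 22 arrays). Bcl11b peaked in fraction 8, the fraction in which the 9 striatum markers also reached their highest sum, 111, against a lowest sum of 6.75 in fraction 2, and the part of striatal RNA in the profile was not tested. Fezf2 was at -3.61, -2.55 and -6.95 (not well above background) in fractions 1 to 3 and between -1.11 and 1.35 in fractions 4 to 10, at least 141-fold from lowest to highest. Its scatter was the widest of the 9 genes, with a residual SD of 1.53. The value of fraction 3, not well above background, was fitted as a level and is part of that scatter. The fitted change of Fezf2 was 4.69 ± 1.47 (SE, adjusted p = 0.0368, limma). Leaving out any one of coronal fractions 2, 5, 6, 7 or 9 or sagittal fractions 1, 4, 5 or 6 gave an adjusted p above 0.05, of up to 0.0717, while the fitted change stayed between 4.48 and 4.87. The lowest adjusted p on leaving out a single array was 0.000316 (limma).

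The fitted rises of Cux2 and Rorb were smaller than those of the 3 deep-layer members, a contrast that was not tested. Other genes of these layers did not show it. Their median coronal change was 1.11 over 10 other upper-layer genes and 0.88 over 17 other deep-layer genes. Cux2 was at -2.30, -3.10 and -2.46 in coronal fractions 1 to 3 and between -1.66 and -1.21 in fractions 4 to 10, a fitted change of 1.64 ± 0.30 (SE, adjusted p = 0.00621, limma). Rorb was at -0.43, -1.53 and -0.80 in fractions 1 to 3 and between -0.19 and 1.00 in fractions 4 to 10, highest in fraction 7, with a fitted change of 1.44 ± 0.41 (SE, adjusted p = 0.0166, limma). The low and the high fractions did not overlap in either gene, but lay closer together than in Tbr1 or Emx1. Without coronal fraction 2 the adjusted p of Rorb was 0.0518 by limma and its fitted change was 0.93. The 8 thalamus markers had their highest sum, 18.4, in coronal fraction 6 and their lowest, 4.58, in fraction 8, and their part in the Rorb profile was not tested.

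Neurod2 and Cux1 did not pass in the main analysis, though Neurod2 did under 3 alternative settings and without coronal fraction 1 (adjusted p = 0.0472, limma, fitted change -1.19) or fraction 9 (0.0278, -0.97). Neurod2 was highest in coronal fractions 2 and 3, at 4.16 and 4.14, ranged from 2.39 to 3.93 in the others, and had a fitted change of -0.65 ± 0.37 (SE, adjusted p = 0.0925, limma). Fraction 3, with the highest cerebellar granule cell marker sum, was thus also among the 2 highest for Neurod2. Zic1 alone gave 134 of that sum of 180, and without Zic1 fraction 3 was still the highest, at 46.2 against 44.3 in fraction 2. The part of cerebellar RNA was not tested. Cux1 stayed between 3.14 and 3.86 over the 10 coronal fractions, a range of 1.65-fold, and had a fitted change of 0.46 ± 0.19 (SE, adjusted p = 0.137, limma). The 2 other Cux1 probes, which carry a different RefSeq accession from the one used, did not follow it over the 22 arrays (r = -0.12 and -0.02), so the profile belongs to that probe alone.

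With slide as a fixed term, 5 members passed along the coronal series. Fezf2, Cux2 and Rorb no longer did (adjusted p = 0.129, 0.0730 and 0.0724, limma), and Neurod2 then did (0.0367). In that fit 1598 of 39621 probes passed, against 7850 without the slide term. The slide terms fit coronal fraction 2 exactly and give fractions 9 and 10 an offset of their own. Slide and position cannot be told apart there.

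**Figure D2:**
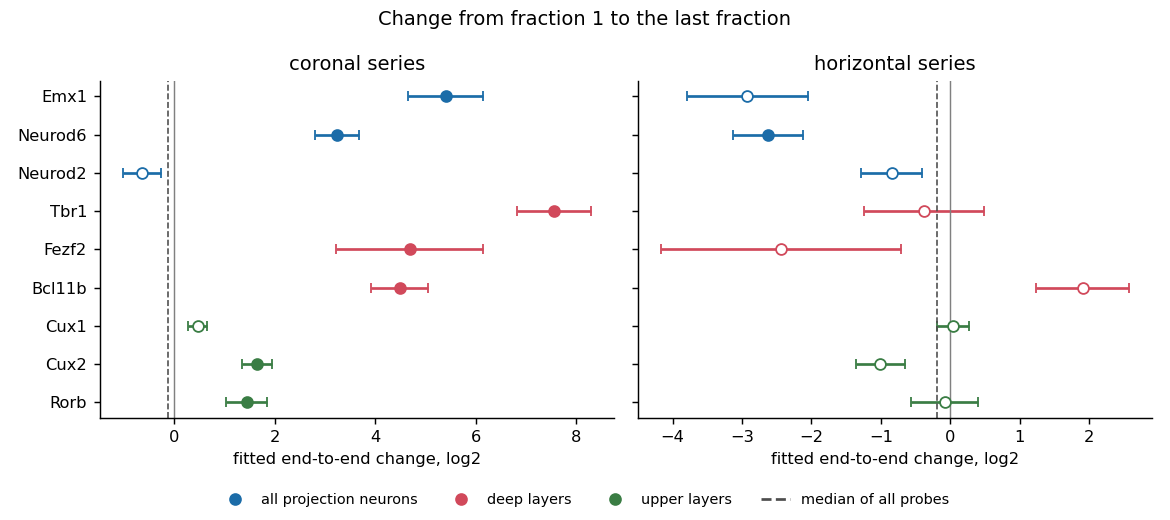
Fitted change from the first to the last fraction (log2, horizontal axis) of each gene in the coronal and the horizontal series. Bars are ± 1 SE, filled points passed limma's test at an adjusted p of 0.05, open points did not, colours give the gene group, and the dashed line is the median of all probes. The coronal changes run from -0.65 for Neurod2 to 7.56 for Tbr1, and in the horizontal series only Neurod6, at -2.63, is filled.

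The promoter windows of the genes that moved together are given because letters shared between them could be looked for there. The windows span 250 bases before to 50 after the start of the gene in RefSeq's mouse table of build GRCm38.p6, in which all 9 genes had an entry and Cux2 and Rorb had a pair of starts each. The 4 windows printed belong to the 3 genes with the lowest adjusted p in the coronal series and, for contrast, to Neurod2, whose coronal profile differed from theirs. Each is read 5′ to 3′ on the strand of the gene, and capitals mark a match to one of 4 motifs searched on both strands, namely CAGATG and CAGCTG (E-box letters bound by basic helix-loop-helix factors), AGGTGTGA (letters bound by T-box factors) and TAATTA (a homeodomain core).
Tbr1, chr2:61804203-61804502, plus strand: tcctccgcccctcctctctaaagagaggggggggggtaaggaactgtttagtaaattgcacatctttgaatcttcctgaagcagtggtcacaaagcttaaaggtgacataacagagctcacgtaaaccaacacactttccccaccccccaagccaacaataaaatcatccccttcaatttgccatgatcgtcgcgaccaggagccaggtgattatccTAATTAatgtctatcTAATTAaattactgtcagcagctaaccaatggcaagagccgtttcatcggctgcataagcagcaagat
Neurod6, chr6:55681214-55681513, minus strand: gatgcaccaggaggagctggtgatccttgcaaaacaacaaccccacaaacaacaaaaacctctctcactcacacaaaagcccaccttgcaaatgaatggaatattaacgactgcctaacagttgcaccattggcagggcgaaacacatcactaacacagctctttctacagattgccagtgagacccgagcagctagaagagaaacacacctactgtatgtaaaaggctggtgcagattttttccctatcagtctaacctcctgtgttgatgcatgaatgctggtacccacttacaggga
Emx1, chr6:85187681-85187980, plus strand: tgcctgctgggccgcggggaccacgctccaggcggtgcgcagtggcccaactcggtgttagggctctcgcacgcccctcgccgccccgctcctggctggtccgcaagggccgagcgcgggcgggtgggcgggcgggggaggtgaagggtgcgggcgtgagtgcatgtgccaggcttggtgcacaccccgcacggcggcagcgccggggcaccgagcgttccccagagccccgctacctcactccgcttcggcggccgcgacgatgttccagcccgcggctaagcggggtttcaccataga
Neurod2, chr11:98329596-98329895, minus strand: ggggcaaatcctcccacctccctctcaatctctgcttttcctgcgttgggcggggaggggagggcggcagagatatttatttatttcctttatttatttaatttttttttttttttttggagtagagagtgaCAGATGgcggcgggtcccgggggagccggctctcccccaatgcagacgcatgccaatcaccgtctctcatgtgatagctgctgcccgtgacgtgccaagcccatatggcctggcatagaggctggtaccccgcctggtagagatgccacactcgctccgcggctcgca

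The Tbr1 window held 2 copies of TAATTA, letters found in 5.29% of 32841 promoter windows of this length. The Neurod2 window and the second Cux2 window held 1 CAGATG each, which 17.2% of all windows hold. None of the windows of the other 6 genes had a match to any of the 4 motifs, and CAGCTG and AGGTGTGA, found in 16.3% and 1.28% of all windows, were in none of the 9 genes' windows. The windows also differed in composition, with 46.0% G and C in Tbr1, 46.3% in Neurod6 and 74.0% in Emx1 against a median of 52.7% over all windows. The 3 genes with the lowest adjusted p in the coronal series shared none of these letters in the windows shown. With shares of 1.28% to 17.2% over all windows, that absence says little.

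Along the horizontal series, 1 of the 9 genes passed, against 6.57% of all probes, 3.94% rising and 2.63% falling. This was Neurod6, which fell with fraction number. It was highest in fraction 1 and lower in each next fraction, at 2.98, 2.56, 2.27, 2.14, 1.29 and 0.09 in fractions 1 to 6, and fraction 1 was 7.41-fold above fraction 6. The steps from 4 to 5 and from 5 to 6 exceeded the spread of a difference, 0.615, whereas the first 3 steps did not. The fitted change was -2.63 ± 0.51 (SE, adjusted p = 0.0225, limma). The call was lost without horizontal fraction 1, 2, 5 or 6, with an adjusted p of 0.0744, 0.0511, 0.0551 and 0.147. The fitted change was -2.37, -2.70 and -2.74 without fraction 1, 2 or 5 and -1.52 without fraction 6. With the signal of a dim spike-in probe as a covariate the adjusted p was 0.135 (limma). It was 0.0674 with arrays centred on their median, 0.0615 with a linear term only and 0.181 with the horizontal arrays alone. With only arrays whose slope was in range, which leaves horizontal fractions 4 to 6, it was 0.865. Glial markers moved the other way, the oligodendrocyte sum lying between 26.3 and 71.2 in fractions 1 to 3 and between 128 and 271 in fractions 4 to 6, with 5 of 8 markers rising along the series and none falling. Of the astrocyte markers 2 of 7 rose and of the microglia markers 3 of 6, and the part of glial RNA in the Neurod6 profile was not tested.

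Emx1 and Fezf2 had the same order of fractions as Neurod6 without passing the test. Emx1 was at 1.82, 1.04, 0.11, -0.45, -0.79 and -1.06 in horizontal fractions 1 to 6, with a fitted change of -2.92 ± 0.87 (SE, adjusted p = 0.0828, limma). Fezf2 was at 0.80, 0.37, 0.31, -0.45, -0.71 and -1.81, with a fitted change of -2.43 ± 1.73 (SE, adjusted p = 0.482, limma). Emx1 passed with quantile normalization (0.0406), with normexp (0.0354) and without coronal fraction 3 (0.00624, with the same fitted change), and Fezf2 passed without coronal fraction 3 (0.0362). No single step of either gene exceeded the spread of a difference, 1.09 for Emx1 and 2.17 for Fezf2. These spreads come from all 3 series and include the coronal values that were not well above background. A level that was lower at every step from fraction 1 to fraction 6 was found in 0.644% of the probes tested and in these 3 members.

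Bcl11b ran the other way. Its horizontal levels were 0.12, 0.97, 1.02, 2.10, 2.49 and 1.65, all of fractions 1 to 3 below all of fractions 4 to 6, with a fitted change of 1.90 ± 0.67 (SE, adjusted p = 0.0963, limma), so it did not pass, though it did without coronal fraction 1 (0.0355). Fractions 1 to 3 lay below fractions 4 to 6 in 17.4% of probes. The striatum markers summed to between 8.80 and 20.4 in horizontal fractions 1 to 3 and to between 38.2 and 44.9 in fractions 4 to 6, moving the same way as Bcl11b, and 8 of the 9 markers were well above background on all arrays (Isl1 on 19). The summed olfactory bulb markers (2.72 to 5.08 against 15.0 to 21.6), thalamus markers (4.03 to 7.61 against 8.31 to 11.7) and glial markers were higher in fractions 4 to 6 too. The part of RNA from any of these in the Bcl11b profile was not tested.

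Tbr1 was nearly level, between 2.60 and 3.27 in the 6 horizontal fractions with a fitted change of -0.38 ± 0.86 (SE, adjusted p = 0.877, limma). Neurod2 was highest in the middle, at 3.76 in fraction 3, and lowest at 1.99 in fraction 6 (adjusted p = 0.0725, limma). It passed with no scaling (0.0367), with probes detected on all 22 arrays (0.0444), with slide as a fixed term (0.0239) and without coronal fraction 1, 2 or 9 (0.0489, 0.0406 and 0.0461). Of its neighbours in rank, only the gap of 1.00 above fraction 6 exceeded the spread of a difference, 0.530.

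No upper-layer gene passed along the horizontal series. Cux2 was at -1.37, -1.94 and -1.84 in horizontal fractions 1 to 3 and at -2.25, -1.96 and -2.69 in fractions 4 to 6, with a fitted change of -1.01 ± 0.35 (SE, adjusted p = 0.119, limma). Its 2 groups of 3 fractions did not overlap, as in 28.4% of probes in this direction. Rorb stayed between -0.44 and 0.05 and Cux1 between 3.35 and 3.62, and their adjusted p values were 0.764 and 0.946 by limma.

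The difference between fractions 1 to 3 and fractions 4 to 6 was taken gene by gene to compare the layer groups, since this was the comparison the horizontal series was read for. It was 0.58 for Cux2, 0.01 for Rorb and -0.10 for Cux1 among the upper-layer genes. Among the deep-layer genes it was 1.48 for Fezf2, 0.35 for Tbr1 and -1.38 for Bcl11b. The deep-layer genes thus spread over a wider range than the upper-layer genes and held both the highest and the lowest difference of the 2 groups. The Cux1 value, here and in the means and pairs below, is that of a probe which the other Cux1 probes did not follow. The general factors had differences of 1.76 for Emx1, 1.43 for Neurod6 and 0.50 for Neurod2, and the median over all probes was 0.10. An interval of 2 SE around the difference left out 0 for Emx1 (0.56 to 2.95) and Neurod6 (0.74 to 2.12). It also did for Bcl11b (-2.29 to -0.46) and Cux2 (0.10 to 1.07), and it held 0 for the other 5. These intervals are unadjusted, and the share of all probes with such an interval was not computed. By limma's horizontal test, 15041 of 39621 probes had an unadjusted p under 0.05, as did 5 of the 9 members. Of the genes whose interval left out 0, only Neurod6 passed that test after adjustment. The adjusted p was 0.0828 for Emx1, 0.0963 for Bcl11b and 0.119 for Cux2 (limma).

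The mean of the 3 upper-layer genes minus that of the 3 deep-layer genes, each gene centred on its own horizontal mean, differed between fractions 1 to 3 and 4 to 6 by 0.01 with an error of 0.49, computed from limma's moderated SDs with genes taken as independent. These SDs come from all 3 series, and that of Fezf2, 1.44, includes a coronal value that was not well above background. Each fraction is a whole slab of brain and can hold several layers at once. Whether fraction number orders the layers was not tested, so this difference cannot show whether layers differ along the axis. The small mean joins large opposite values. Of the 9 pairs of an upper-layer with a deep-layer gene, the upper-layer gene had the higher difference in 4, which were the 3 pairs with Bcl11b and the pair of Cux2 with Tbr1, and the lower in 5. The pair values ran from -1.58 for Cux1 with Fezf2 to 1.96 for Cux2 with Bcl11b. With Cux1 and Cux2 against Tbr1 and Fezf2 the difference was -0.68, and with Cux2 against Fezf2 it was -0.90, so the choice of genes decided the value.

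By fraction, the upper minus deep mean was 0.28 in fraction 1, between -0.21 and -0.06 in fractions 2 to 5 and 0.25 in fraction 6. These values carry no error of their own. The position of each gene along the axis, as the fraction number weighted by linear signal, was 2.31 for Emx1, 2.65 for Neurod6 and 2.67 for Fezf2, then 3.10 for Cux2, 3.26 for Neurod2, 3.35 for Tbr1, 3.46 for Rorb and 3.51 for Cux1, and 4.15 for Bcl11b. A gene with equal signal in all 6 fractions would lie at the centre, near Rorb and Cux1.

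**Figure D3:**
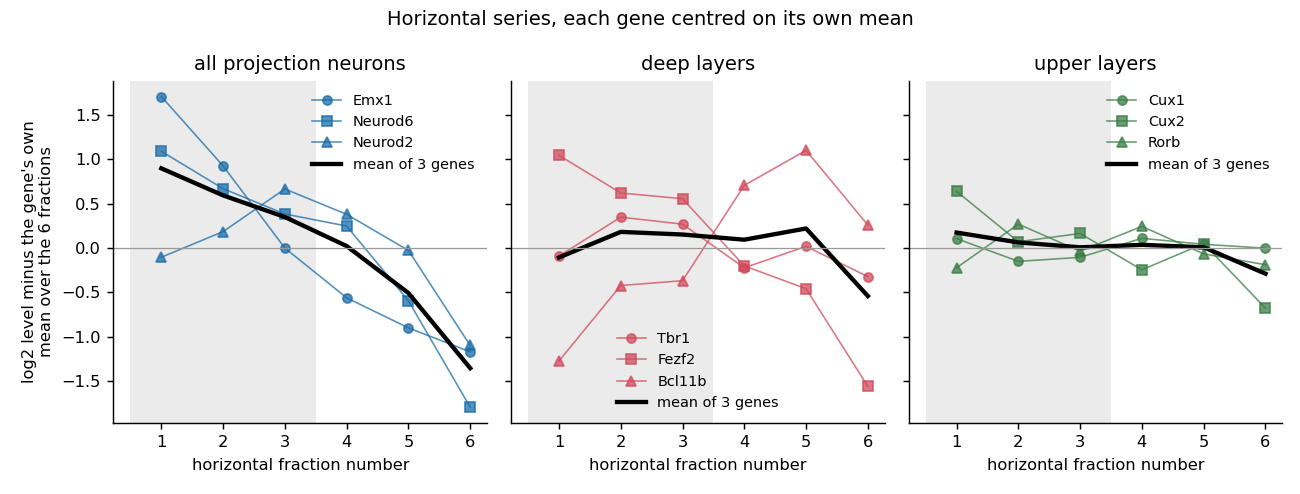
Level of each gene minus its own mean over the 6 horizontal fractions (log2, vertical axis) against fraction number, by gene group, 1 array per point, with the mean of the 3 genes in black and arrays with the slope out of range in grey. The general factors slope down from a mean of 0.90 to -1.36, the deep-layer genes spread from -1.28 to 1.05 in fraction 1 with Bcl11b lowest and Fezf2 highest, and the upper-layer genes stay between -0.68 and 0.64.

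Bcl11b was like Emx1, Neurod6, Tbr1 and Fezf2 along the coronal axis and unlike them along the horizontal axis, where Tbr1 was nearly level. Over the 10 coronal fractions Bcl11b had a Pearson r of 0.93 with Emx1, 0.92 with Neurod6, 0.97 with Tbr1 and 0.81 with Fezf2. Over the 6 horizontal fractions the same correlations were -0.88, -0.61, -0.30 and -0.70. Neurod6 and Fezf2 were alike along both axes, at 0.82 and 0.97. Fractions of a series share a mouse and the array scaling, and these coefficients are descriptions of different brains, with no test.

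**Figure D4:**
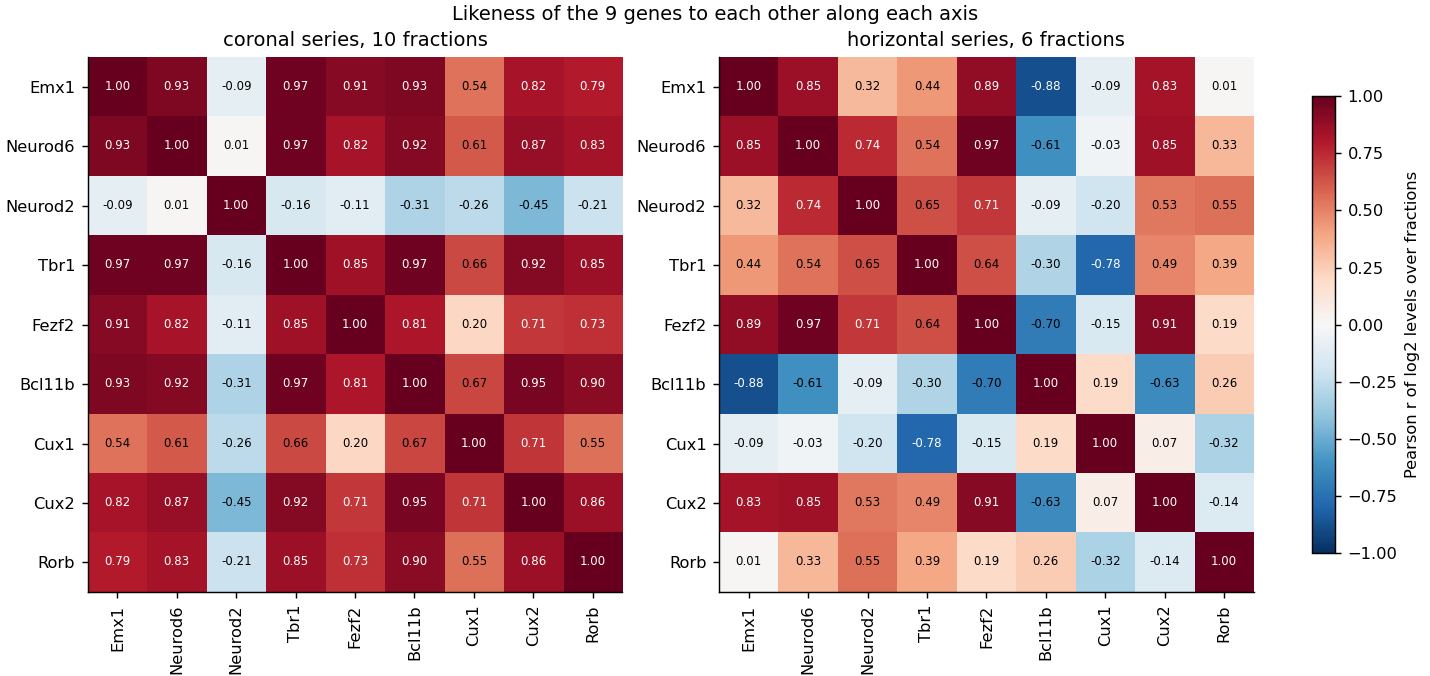
Pearson r between the log2 levels of each pair of the 9 genes over the 10 coronal fractions (left) and the 6 horizontal fractions (right), with colours from -1 (blue) to 1 (red). The Bcl11b row is red with Emx1, Tbr1 and Fezf2 on the left and blue on the right, and the Neurod2 row runs from -0.45 to 0.01 on the left.

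Along the sagittal series no member passed either test by limma, against 10.2% of probes for the linear term and 0.0303% for the quadratic term. At an unadjusted p of 0.05, 2 of the 9 members passed the linear and 1 the quadratic term, as did 9526 and 5859 of the 39621 probes. Emx1 was high at both ends and low in the middle, at 1.08, 0.29, -1.06, -1.11, -0.44 and 0.73 in fractions 1 to 6, and its adjusted p for the quadratic term, 0.228 by limma, was the lowest of the 9. Tbr1 had a like shape, at 4.03, 3.00, 2.81, 2.16, 2.75 and 3.25 (adjusted p = 0.488, limma). Bcl11b, by contrast, was at 1.81, 1.76, 1.35, 0.88, 1.44 and 0.27, with a linear change of -1.45 ± 0.71 (SE, adjusted p = 0.231, limma).

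The levels of the other 6 genes covered 1.18 log2 units or less in the sagittal series. Fraction 1 was the highest of the 6 for 8 of the 9 genes, all but Cux1, as it was for 26.8% of probes. That array is among those with the slope out of range. The 7 olfactory bulb and 8 cerebellar granule cell markers had their highest sagittal sums, 18.0 and 114, in fraction 4 and their lowest, 4.31 and 40.4, in fraction 1, and their part in the members' profiles was not tested.

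Other genes of cortical projection neurons, from lists chosen for their textbook roles, did not all follow the members. Of 15 other pallial and projection neuron genes tested, 13 passed along the coronal series, and their linear term was beyond 2 SE upwards in 8, downwards in 3 and within 2 SE of 0 in 2. Along the horizontal series 5 passed, 1 upwards, 2 downwards and 2 within 2 SE of 0 (Neurog2 and Neurod1). Mef2c, a MADS-box factor of excitatory neurons, rose by 4.49 ± 0.53 (SE, adjusted p = 0.000247, limma) in the coronal series, and Neurod1, a relative of Neurod2 and Neurod6 that is active in cerebellar granule neurons, fell by 4.98 on the log2 scale (SE 0.73; adjusted p = 0.00169, limma). In the horizontal series Neurog2, a proneural factor of cortical progenitors, passed with a linear change of -0.69 ± 0.85 (SE, adjusted p = 0.0254, limma), so its call did not rest on an end-to-end difference.

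Of 10 other upper-layer genes tested, 5 rose and 1 fell along the coronal series, and 1 rose and 2 fell along the horizontal series. Plxnd1, a semaphorin receptor, rose by 1.80 ± 0.27 (SE, adjusted p = 0.000362, limma) in the coronal series. Pou3f3, a POU-domain factor of upper-layer neurons, fell in the horizontal series with a change of -1.33 ± 0.34 (SE, adjusted p = 0.0471, limma), while Rgs8, a regulator of G-protein signalling, rose there by 1.45 ± 0.34 (SE, adjusted p = 0.0182, limma). Of 17 other deep-layer genes tested, 11 passed along the coronal series, 7 upwards, 2 downwards and 2 within 2 SE of 0 (Nr4a2 and Otx1, named after their values were seen), and 3 passed along the horizontal series, 2 upwards and 1 within 2 SE of 0 (Nr4a2). Pcp4, a calmodulin-binding protein, rose along the horizontal series by 1.46 ± 0.33 (SE, adjusted p = 0.0297, limma). Ccn2, a secreted matrix protein of the deepest cortical neurons, rose along the coronal series by 2.87 ± 0.42 (SE, adjusted p = 0.00198, limma), and Zfpm2 fell with a change of -1.96 ± 0.31 (SE, adjusted p = 0.00121, limma). The median difference between horizontal fractions 1 to 3 and 4 to 6 was -0.13 over the other upper-layer genes and -0.37 over the other deep-layer genes, beside 0.10 over all probes, and 5 of 10 and 6 of 17 were higher in fractions 1 to 3.

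The genes most like each member over the 22 arrays, among 16691 named genes, differed between members. Kcnh3, a potassium channel gene, was the nearest to Emx1 (r = 0.963) and among the 3 nearest to Tbr1 (r = 0.964). Mef2c (r = 0.951) and Mpped1 (r = 0.950) followed for Emx1. Gda, which encodes guanine deaminase, was also among the 3 nearest to Tbr1 (r = 0.972). Tbr1 and Gda were alike over the coronal (r = 0.985) and the sagittal fractions (r = 0.979) and not over the 6 horizontal ones (r = -0.671).

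Neurod6 was nearest to Itprid1 (r = 0.959), Trim67 (r = 0.951) and Ccbe1 (r = 0.930). Bcl11b was nearest to Nab2 (r = 0.958), Kalrn (r = 0.946) and Sipa1l1 (r = 0.935), and Nab2 was alike along the coronal (r = 0.992) and the horizontal series (r = 0.909). Fezf2 was nearest to Kcng1 (r = 0.936), Nr2e1 (r = 0.929) and the muscarinic receptor gene Chrm1 (r = 0.924), and Rorb to Pcnx2 (r = 0.948), Plcxd2 (r = 0.943) and Kcns1 (r = 0.930). Cux2 was nearest to Mllt1 (r = 0.908), Asap1 (r = 0.907) and Hs3st2 (r = 0.895). Few genes were like Neurod2 and Cux1. Neurod2 had 2 genes above an r of 0.85, which were the somatostatin receptor gene Sstr2 (r = 0.874) and Nkain1 (r = 0.858), and Rassf3 came next (r = 0.820). Cux1 had none above it, and its 3 nearest were Sec14l1 (r = 0.832), Niban2 (r = 0.830) and Med15 (r = 0.826). Bcl11b had 180 such genes and Tbr1 had 165. These coefficients are ranks picked from many genes over arrays that share mice and scaling, and they carry no test.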

How the data were processed

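RNA from 22 brain slabs of 3 mice was measured on SurePrint G3 Mouse 1-colour arrays. Per the file headers, the deposited intensity values are processed signals from Agilent Feature Extraction 10.10.1.1, background-corrected by the authors. The deposited series table holds log2 values, which fell within 0.02 of the levels used here for 99.9% of matched values with no further centring, so their scale and centring are those used here (array medians -2.90 to -1.86). The members and gene lists were chosen with earlier results of these data known.

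Here log2 processed signal minus each array's 75th percentile was computed for 55600 probes, after leaving out control spots and outlier flags. No spot was saturated. limma 3.58.1 (R 4.3.3) fitted an intercept and linear and quadratic terms in slab position for each series to 39621 probes well above background in at least 1 fraction of each series (13 residual degrees of freedom, Benjamini-Hochberg, threshold 0.05). The fit was tested on simulated data. Named genes are the 9 members, the 3 most alike genes of each (1 is not reported here), and per list those with the lowest adjusted p in a direction. Alternatives were median centring, quantile normalization, no scaling, normexp (offset 50, on the median signal since no mean signal was used), the authors' table, probe filters, slide, spike-in, other probes and leaving out arrays. Protein sequences were not analysed here.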

Additional observations from a re-analysis of the deposited data

Results flagged for a closer look

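2 of 27 series profiles of the members had 1 fraction standing far from the rest, where chance alone flags about 1 in 20, so the count is near that rate. Neurod6 in sagittal fraction 1 was at 2.67, with a gap to the next fraction that was 0.828 of the whole range of the 6 fractions. Fezf2 in the same fraction was at 0.561, with a gap of 0.677 of its range. Both are the same array, 1 of the 7 with the spike-in slope out of range, and the part of array quality in these values was not tested.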

How the results depend on the processing

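The 7 coronal calls became 4 with the coronal arrays alone (634 of 39621 probes passed, against 7850 in the main analysis), and the count lay between 5 and 8 under every other alternative, leaving out each array in turn included. The horizontal count of 1 became 0 with arrays centred on their median, with the dim spike-in as a covariate, with only the arrays whose slope was in range, with a linear term only and with the horizontal arrays alone. Of all 39621 probes, 1224, 60, 13, 206 and 0 passed under these 5 settings, against 2604 in the main analysis. The arrays with the slope in range hold only horizontal fractions 4 to 6, so that setting could not test a change from fraction 1 on. The horizontal count became 2 with quantile normalization (Emx1 joining, adjusted p = 0.0406 by limma), with no scaling, with normexp, with probes detected on all 22 arrays and with slide as a fixed term, and ran from 0 to 3 without single arrays. The sagittal linear count became 1 with the dim spike-in as a covariate (Cux1, adjusted p = 0.0439 by limma) and ran from 0 to 1 without single arrays, as did the quadratic count. The upper minus deep difference was -0.68 with Cux1 and Cux2 against Tbr1 and Fezf2, -0.90 with Cux2 against Fezf2 alone, -0.24 with quantile normalization and -0.126 to 0.141 without single fractions. The cause of these shifts was not tested. Fezf2 and Rorb lost their coronal call with the dim spike-in as a covariate (adjusted p = 0.0619 and 0.0797 by limma), with a linear term only (0.0731 and 0.0924) and, with Cux2 (0.0754), with the coronal arrays alone (0.175 and 0.120). With only the arrays whose slope was in range, Neurod6 (0.0625) and Fezf2 (just above 0.05) lost theirs. Neurod2 gained one with no scaling, normexp and slide as a fixed term (0.0322, 0.0385 and 0.0367). Of all tests of single members under alternatives other than leaving out an array, 389 kept their side of the threshold, 9 gained a call and 17 lost one, and no called value changed direction. Array medians differed by 0.60 log2 units after the main scaling. No paired analysis was possible because fraction numbers are positions in different mice and axes, not replicates.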
